A study of Homo sapiens with 6 samples.

Results

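Polyamine metabolism was described through 10 genes of synthesis, breakdown and control, chosen by name: ODC1, AMD1, SRM, SMS, SAT1, SMOX, PAOX, AZIN1, OAZ1 and OAZ2. All 10 were among the 16000 genes of the deposited table. Poly(A) RNA had been sequenced from LNCaP, an established, androgen-sensitive human prostate cancer cell line. The cells had been labelled with ALDEFLUOR, which aldehyde dehydrogenase turns into a fluorescent product, and the brightest 10% (ALDH high) and the dimmest 10% (ALDH low) had been collected. Each of these 2 groups had 3 libraries, numbered 1 to 3, and values are listed in that order throughout. Both sorted populations were kept in RPMI-1640 with 10% fetal bovine serum, with no other treatment. How long they grew after sorting is not given by the labels. Whether the libraries of a group were sorted separately is not stated, and the p-values then reflect the spread between these libraries alone, which may be technical.

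Polyamines are small, positively charged molecules that bind nucleic acids and are needed for growth. ODC1 makes putrescine from ornithine, AMD1 decarboxylates S-adenosylmethionine to supply aminopropyl groups, and SRM and SMS add those groups to form spermidine and spermine. SAT1 acetylates polyamines for export or oxidation, PAOX oxidises the acetylated forms, and SMOX oxidises spermine directly. Antizymes (OAZ1, OAZ2) bind ODC1, send it to the proteasome and restrain polyamine uptake, while AZIN1, a relative of ODC1 without its activity, binds antizyme in its place. The prostate makes and secretes unusually large amounts of polyamines, and several of these enzymes are known androgen-responsive genes there.

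The antizyme mRNAs carry a polyamine sensor in their coding sequence, which is why it is shown first. Translation starts in one frame and meets a stop codon, and at high polyamine levels the ribosome skips a base there and reads on in the next frame. In GENCODE release 29, OAZ1-211 has 68 codons before the skipped base and 228 codons when the base is skipped, and OAZ2-201 has 32 and 189. The sites lie in the coding exons at chr19:2271428-2271457 (plus strand) and chr15:64691501-64691530 (minus strand), in GRCh38. Each is written below 5′ to 3′, and the capitals mark the last codon read in the first frame and the stop codon that follows it, whose first base is the skipped one.
OAZ1: cctcggtggtgcTCCTGAtgcccctcaccc
OAZ2: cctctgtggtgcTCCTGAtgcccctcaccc
The sites were identical in 29 of 30 bases, and the difference was G5T (OAZ1 base, position from the 5′ end of the printed stretch, OAZ2 base). Poly(A) RNA counts report the amount of antizyme mRNA and carry no measure of how often this shift took place.

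Recovered whole reads ran from 23817310 to 30617873 per library over the listed rows. The libraries did not separate by sort gate. By the mean chi-square per gene on recovered reads, ALDH high 1, ALDH high 3 and ALDH low 2 were near one another (5.24 to 9.86), while every other pair lay at 41.3 to 89.5, so no pair was a duplicate. The share of reads from mitochondrial genes divided the libraries in the same way, at 4.52% to 4.88% in those 3 and 2.003% to 2.98% in the others. The files do not settle whether the samples numbered 2, ALDH high 2 and ALDH low 2, carry each other's labels. Every group value here follows the labels as given, and results are also given without both of these samples. These 2 were singled out by the same expression values, so p-values of that fit are no independent evidence. ALDH low 3 had a normalized total over genes of 1.10 times the mean library, against 0.966 to 1.002 in the other libraries, and the largest share of reads from cytosolic ribosomal protein genes (14.3%, against 10.2% to 13.2%). All 8 luminal prostate markers examined were in the table, and their summed level ran from 191157 to 205747 normalized reads in the ALDH high libraries and from 186334 to 222442 in the ALDH low ones. Of markers of other cell types, 1 of 6 leukocyte genes was in the table, summing to 16.4 to 32.0 normalized reads in ALDH high and 19.9 to 27.9 in ALDH low. The table also held 2 of 5 fibroblast, 1 of 4 endothelial and 1 of 4 basal genes, while PTPRC, PECAM1, DCN, KRT5 and TP63 were not among its genes. The fibroblast genes, COL1A1 and PDGFRB, summed to 1539 to 1846 in ALDH high and 881 to 1519 in ALDH low. The endothelial gene, VWF, gave 189 to 417 in ALDH high and 235 to 386 in ALDH low. The basal gene, KRT14, gave 70.2 to 215 in ALDH high and 95.7 to 286 in ALDH low.

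Between the sort gates, no difference was detected in any polyamine gene. None of the 10 passed the threshold of limma (adjusted p under 0.05 over all genes), where 0% of the 16000 genes did, and adjusted p ran from 0.984 to 0.988. None had an unadjusted p under 0.05, where 2.11% of all genes did. The groups overlapped in all 10 genes, whereas 3.67% of all genes lay wholly higher and 3.32% wholly lower in ALDH high. The difference, ALDH high minus ALDH low on the log2(normalized reads + 1) scale, was above 0 in 4 polyamine genes and below 0 in 6, where 47.7% of all genes lay below 0. Its median was −0.06 over the 10 genes and 0.02 over all genes. Every 95% interval included 0 and lay within a 2-fold change either way, as did 94.2% of the intervals of genes averaging 100 normalized reads or more. In bulk RNA, fewer cells that express a gene and less of its RNA per cell cannot be told apart. In the authors' deposited table, all 10 had an adjusted p of 0.998.

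**Figure D1:**
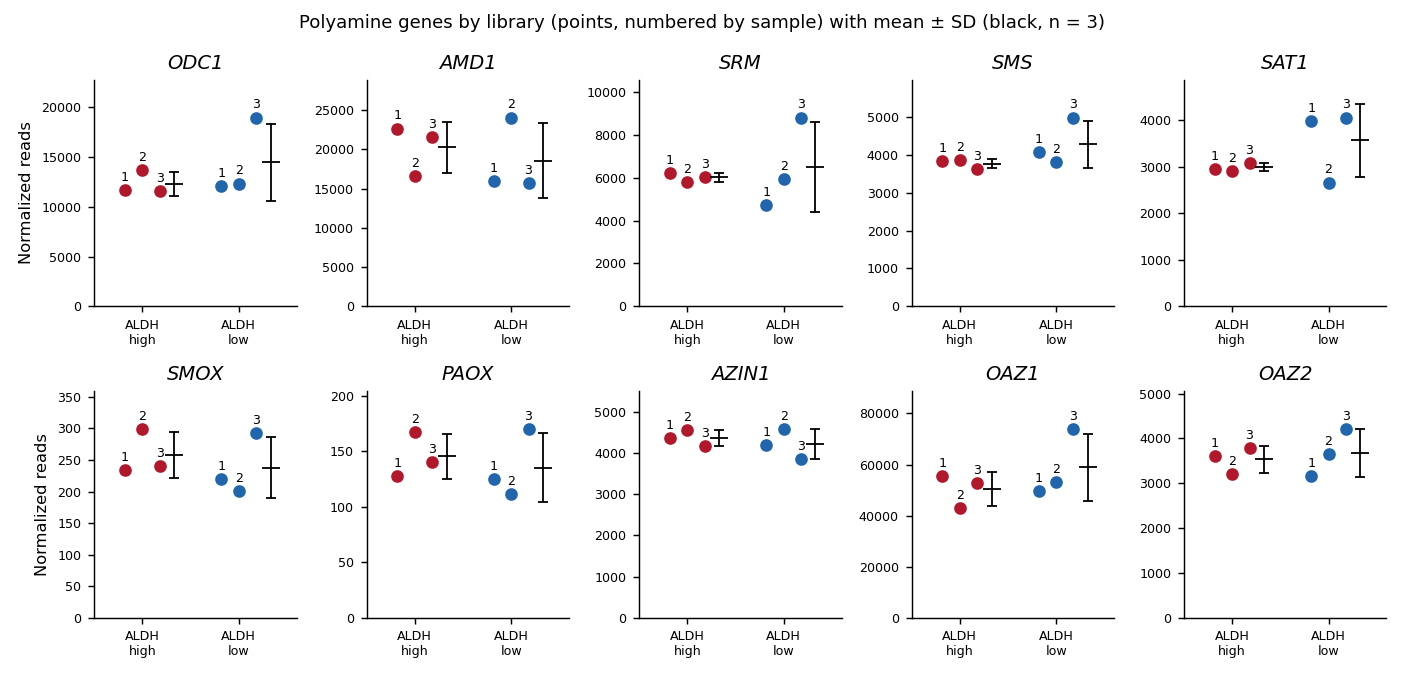
Normalized reads (linear axis from 0) of each polyamine gene in the 3 ALDH high (red) and 3 ALDH low (blue) libraries, numbered by sample, with the group mean ± SD in black (n = 3). The groups overlap in every panel, and ALDH low 3 is the highest library in 7 of the 10 genes.

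The levels spanned a wide range, read per length as normalized reads per kilobase of exon in GENCODE's basic transcript set. OAZ1 was by far the most abundant, with group means ± SD (ALDH high, then ALDH low, n = 3 each) of 43900 ± 5714 and 51317 ± 11434, which placed it at rank 30 of all genes by this measure. AMD1 followed with 5812 ± 935 and 5325 ± 1364, SRM with 4753 ± 167 and 5137 ± 1646, and ODC1 with 4164 ± 416 and 4891 ± 1322. These synthesis enzymes ranked 305, 356 and 389, and their ranges over the 6 libraries overlapped, so their order is not resolved. SMS (2050 ± 67.6 and 2330.3 ± 339), SAT1 (1773 ± 52.0 and 2117 ± 466) and OAZ2 (1827 ± 153 and 1901 ± 274) formed a lower tier, also with overlapping ranges. AZIN1 lay below them at 896 ± 38.5 and 866 ± 75.5. The oxidases were scarce, with SMOX at 102 ± 14.4 and 94.4 ± 19.1 and PAOX at 78.3 ± 11.0 and 72.9 ± 16.7, ranks 8833 and 9667, and overlapping ranges. Between tiers the ranges did not overlap: the lowest OAZ1 library (37411) lay above the highest AMD1 library (6900.4), the lowest ODC1 library (3904) above the highest SMS library (2712), the lowest OAZ2 library (1631) above the highest AZIN1 library (942), and the lowest AZIN1 library (791) above the highest SMOX library (119). The order depends in part on the exons counted as length. Over the exons of all annotated transcripts, a length chosen after seeing the data, AMD1 (2238 to 3423) lay wholly below ODC1 (3894 to 6399) and overlapped SMS (1678 to 2306). SAT1 (1064 to 1623) then lay wholly below SMS, and OAZ2 (411 to 549) wholly below SAT1, so the tier of these genes did not hold. OAZ2 also lay wholly below AZIN1 (599 to 714), the reverse of the order above, while OAZ1 stayed the highest and SMOX and PAOX the lowest.

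**Figure D2:**
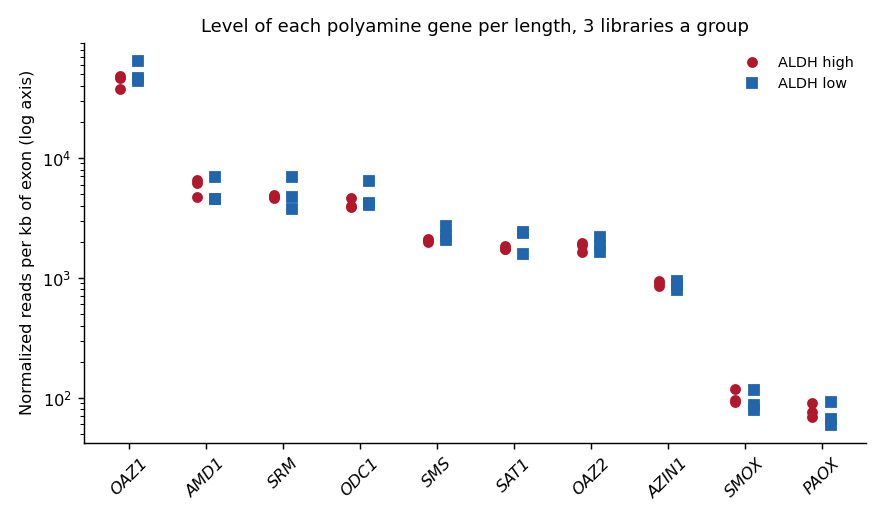
Level of each polyamine gene per length (normalized reads per kilobase of exon in the basic transcript set, log axis), 1 point per library, with ALDH high as red circles and ALDH low as blue squares, ordered by the mean over 6 libraries. OAZ1 stands above all others and SMOX and PAOX lie at or below 119 per kilobase in every library.

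ODC1, the first enzyme of the pathway (ENSG00000115758, chromosome 2, 10439968 to 10448504), gave 11671, 13746 and 11556 normalized reads in the ALDH high libraries and 12082, 12356 and 18993 in the ALDH low ones. ALDH low 3 was 1.38 times the next library, and the other 5 lay close together across both gates. The group means ± SD (n = 3 each) were 12325 ± 1233 and 14477 ± 3913, and ALDH high minus ALDH low was −0.20 on the log2 scale (95% interval −0.65 to 0.24). Without ALDH low 3 the difference was 0.01. Counted in CPM, a share of the library's gene reads that takes out the size factor, ODC1 gave 439, 526 and 426 in the ALDH high libraries and 458, 471 and 637 in the ALDH low ones, so ALDH low 3 was again the highest.

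AMD1, which supplies the aminopropyl donor (ENSG00000123505, chromosome 6, 110874770 to 110895713), gave 22652, 16548 and 21584 normalized reads in the ALDH high libraries and 15910.0, 24055 and 15727 in the ALDH low ones. ALDH high 1, ALDH high 3 and ALDH low 2 were high and the other 3 low, with no library between 16548 and 21584. The mitochondrial share of reads, given above, was also higher in those 3 libraries, and its part in this was not tested. How many of all genes divide the libraries this way was not counted. The group means ± SD (n = 3 each) were 20262 ± 3259.8 and 18564 ± 4756, and the log2 difference was 0.14 (−0.33 to 0.61). It was 0.04 without ALDH low 3 and 0.34 without ALDH low 2. Without both samples numbered 2, which these same data had singled out, it was 0.48, with a limma unadjusted p of 0.0222 and an adjusted p of 0.249. The annotation names 4 AMD1 pseudogenes, AMD1P1 to AMD1P4, none of them in the table, and counting of uniquely placed reads can lose reads that a copy shares.

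SRM, spermidine synthase (ENSG00000116649, chromosome 1, 11054584 to 11060024), gave 6231, 5809.9 and 6010.2 normalized reads in the ALDH high libraries and 4747, 5958 and 8806 in the ALDH low ones. The ALDH high libraries and ALDH low 2 were close together, with ALDH low 1 the lowest library and ALDH low 3 the highest. Its means ± SD (n = 3 each) were 6017 ± 211 and 6504 ± 2084, and the log2 difference was −0.07 (−0.53 to 0.40), which was 0.18 without ALDH low 3. Its 1.85-fold span from the lowest to the highest library was the widest of the 10 genes in normalized reads. By CPM, AMD1 (527 to 916) had a wider fold span than SRM (179.9 to 295). The annotation names 2 SRM pseudogenes, SRMP1 and SRMP2, neither of them in the table. SMS, spermine synthase (ENSG00000102172, chromosome X, 21940573 to 21994835), gave 3824, 3851 and 3623 in the ALDH high libraries and 4064, 3796 and 4982 in the ALDH low ones. Apart from ALDH low 3 its libraries lay between 3623 and 4064, and ALDH high 1, ALDH high 3 and ALDH low 2 lay narrowly below the other 3. The log2 difference was −0.18 (−0.51 to 0.16), or −0.06 without ALDH low 3.

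ODC1 and SRM are both textbook targets of MYC, which with its partner MAX binds the E-box, so stretches around that motif are shown. RefSeq promoter windows (GRCh38.p14, the 250 bases before each annotated start) were found for 7 of the 10 genes. The E-box CACGTG, which reads the same on both strands, occurred before 1 of 2 ODC1 starts and before the SRM start, and in no window of AMD1, SMS, SAT1, OAZ1 or OAZ2. Of all 35116 windows, 6.34% held it. Each 60-base stretch runs 5′ to 3′ along the gene, with the E-box in capitals.
ODC1, chr2:10448013-10448072, minus strand: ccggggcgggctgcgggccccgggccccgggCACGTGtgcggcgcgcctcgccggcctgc
SRM, chr1:11060185-11060244, minus strand: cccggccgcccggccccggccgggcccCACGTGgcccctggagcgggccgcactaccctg
Neither E-box stretch overlaps an exon of its gene in GENCODE release 29, and the ODC1 stretch lies between the first and the next exon of ODC1-201. A TATA motif (TATAA, both strands, 18.9% of all windows) occurred before the other ODC1 start and before 2 of 3 AMD1 starts. The windows of those 2 AMD1 starts overlap and share 1 motif, at −29 bases from one start and −28 from the other. The stretches are printed next with the motif in capitals.
ODC1, chr2:10448343-10448372, minus strand: gacccgccggtgcTATAAgtagggagcggc
AMD1, chr6:110874743-110874772, plus strand: gggagccgggataTATAAgggcggtgctca
The whole printed ODC1 stretch lies in an exon of ODC1-201, and 3 bases of the AMD1 stretch lie in exons of 2 AMD1 transcripts. A match describes the sequence and does not show that a factor is bound. MYC itself gave 11422, 12737 and 11117 normalized reads in the ALDH high libraries and 10839, 11682 and 13318 in the ALDH low ones. Its log2 difference was −0.02 (−0.36 to 0.32), and by CPM its highest library was ALDH high 2 at 487, against 446 in ALDH low 3.

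SAT1, the acetyltransferase that starts polyamine breakdown (ENSG00000130066, chromosome X, 23783173 to 23786226), gave 2953, 2916 and 3083 normalized reads in the ALDH high libraries and 3975, 2659 and 4054 in the ALDH low ones. ALDH low 1 and ALDH low 3 were the high libraries, and ALDH low 2 lay below all ALDH high libraries. With group means ± SD (n = 3 each) of 2984 ± 87.6 and 3563 ± 784, SAT1 had the largest difference of the 10 genes, −0.23 (−0.63 to 0.17), and the smallest limma unadjusted p, 0.226. The difference was −0.43 without ALDH low 2 and −0.12 without ALDH low 3, and in the latter fit SRM, SMOX and PAOX differed by more (0.18, 0.28 and 0.29). Without both samples numbered 2 the difference was −0.41, with an unadjusted p of 0.0304 and an adjusted p of 0.275. SAT1 and AMD1 were the 2 polyamine genes with an unadjusted p under 0.05 in that fit, where 15.3% of all genes had one. None of the 10 passed an adjusted p of 0.05 there, where 0.669% of all genes did.

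The oxidases showed a similar pattern over the libraries. SMOX, spermine oxidase (ENSG00000088826, chromosome 20, 4120980 to 4187747), gave 234, 299 and 240.0 normalized reads in the ALDH high libraries and 220.0, 201 and 292 in the ALDH low ones. PAOX, the peroxisomal oxidase of acetylated polyamines (ENSG00000148832, chromosome 10, 133379234 to 133391694), gave 128, 168 and 141 in the ALDH high libraries and 125, 111 and 170.3 in the ALDH low ones. In both genes ALDH high 2 and ALDH low 3 were the highest libraries and ALDH low 2 the lowest. The log2 differences were 0.12 (−0.36 to 0.60) in SMOX and 0.12 (−0.43 to 0.66) in PAOX, and without both samples numbered 2 they were −0.10 and −0.12. Per kilobase, the ratio of SMOX to PAOX ran only from 1.26 to 1.35 over the 6 libraries, the narrowest of the ratios examined. These rest on 206 to 328 recovered reads of SMOX and 114 to 184 of PAOX, and a gene on the same strand covers 6.94% of the exon bases of all PAOX transcripts. The part of counting error in the ratio of SMOX to PAOX was not tested, and whether the genes are tied cannot be read from it.

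Among the controls of ODC1, OAZ1 (ENSG00000104904, chromosome 19, 2269509 to 2273490) gave 55304, 42947 and 52941 normalized reads in the ALDH high libraries and 49806, 52969.8 and 73958 in the ALDH low ones. ALDH low 3 was the highest library, by 1.34 times over the next, and ALDH high 2 the lowest. Its means ± SD (n = 3 each) were 50397 ± 6559 and 58911 ± 13126, and the log2 difference was −0.21 (−0.69 to 0.27), or −0.04 without ALDH low 3. OAZ2, whose protein also inhibits ODC1 (ENSG00000180304, chromosome 15, 64687573 to 64703281), gave 3609, 3208 and 3784 in the ALDH high libraries and 3155, 3661 and 4215 in the ALDH low ones. It too was highest in ALDH low 3, with a log2 difference of −0.05 (−0.40 to 0.29), which was 0.05 without ALDH low 3. Over the exons of all transcripts, a same-strand gene overlaps 6.40% of the OAZ1 exon bases. An opposite-strand gene overlaps 6.87% of the OAZ1 and 7.22% of the OAZ2 exon bases, and without a stated strand setting such reads cannot be told apart.

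AZIN1, the antizyme inhibitor (ENSG00000155096, chromosome 8), was the steadiest of the 10 genes in normalized reads. By CPM it was not: it ran from 129 to 174.7, a wider span than in OAZ2 (119.5 to 141) and SMS (133.6 to 167). It gave 4369, 4547 and 4172 normalized reads in the ALDH high libraries and 4204, 4586 and 3851 in the ALDH low ones. Here ALDH low 3 was the lowest library, as in AMD1, and the others lay within a narrow band. The SD of its log2 normalized values over the 6 libraries was 0.09, lower than in all but 5.01% of genes averaging 100 or more. The log2 difference was 0.05 (−0.26 to 0.36). Its antisense transcript AZIN1-AS1 overlaps 5.35% of its exon bases. In SRM, AMD1 and ODC1, the most variable members, that SD was 0.29, 0.28 and 0.27, and 70.4%, 67.9% and 65.7% of genes had a lower one.

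**Figure D3:**
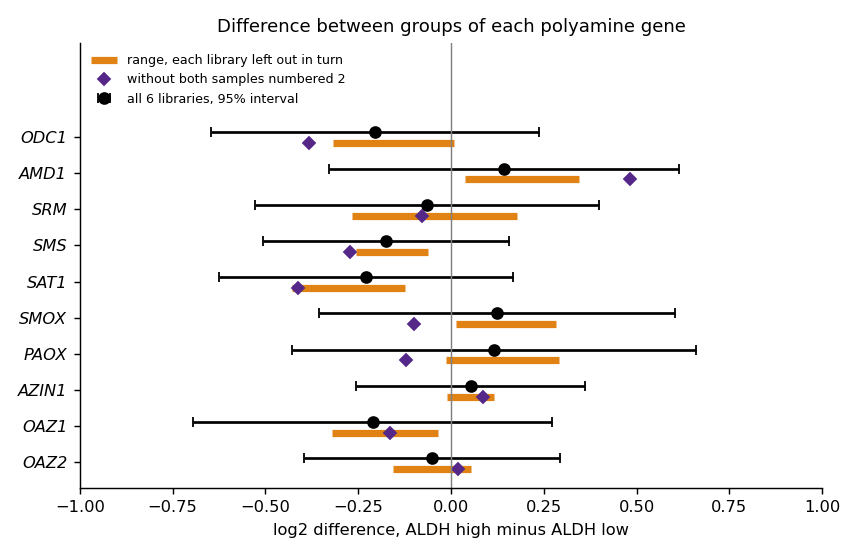
log2 difference between ALDH high and ALDH low for each polyamine gene, with the 95% interval from limma on all 6 libraries (black), the range when each library is left out in turn (orange) and the value without both samples numbered 2 (purple). Every interval includes 0, and SAT1 and AMD1 have the purple points farthest from 0.

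The libraries of a gate differed among themselves. ALDH low 3 was the highest library in 7 of the 10 genes, all but AMD1, SMOX and AZIN1, where 27.5% of all genes had their highest value in that library. ALDH low 3 exceeded the next library only 1.02 times in SAT1 and 1.015 times in PAOX, against 1.11 times (OAZ2) or more in the rest. By CPM it was the highest in 5, namely ODC1, SRM, SMS, OAZ1 and, by only 1.01 times, OAZ2, where 15.9% of all genes were. The larger normalized total of ALDH low 3 and its larger share of ribosomal protein reads, given above, moved with this, and their part in it was not tested. The summed level per kilobase of the 4 synthesis enzymes came to 17445, 16077 and 16816 in the ALDH high libraries and 14608, 17848 and 20596 in the ALDH low ones. That of SAT1, SMOX and PAOX together came to 1916, 1942 and 2003 in the ALDH high libraries and 2516, 1720 and 2617 in the ALDH low ones. Synthesis mRNA thus exceeded breakdown mRNA 5.81-fold in ALDH low 1 and 10.4-fold in ALDH low 2, with ALDH high between them at 8.28 to 9.10, so the gates overlapped. Over the exons of all transcripts it ran from 6.23-fold to 10.6-fold in the same 2 libraries.

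Ratios between genes of one library do not depend on its size factor. AMD1 to ODC1, per kilobase, came to 1.65, 1.02 and 1.59 in the ALDH high libraries and 1.12, 1.65 and 0.703 in the ALDH low ones, and this 2.35-fold span was the widest of the ratios examined. ALDH high 1, ALDH high 3 and ALDH low 2 had the high values and ALDH low 3 the lowest. Over the exons of all transcripts the ratio ran from 0.350 to 0.822, so which of the genes is higher depends on the length used and the order of the libraries does not. ODC1 to AZIN1 was 8.11 in ALDH low 3 and 4.39 to 4.97 in the other libraries. ODC1 to OAZ1 came to 0.0818, 0.124 and 0.0847 in the ALDH high libraries and 0.0941, 0.0905 and 0.0996 in the ALDH low ones, so that ALDH low 3, the library highest in both genes, was not set apart. ALDH high 2 had the highest ratio of ODC1 to its antizyme. Over the exons of all transcripts the ratio of ODC1 to OAZ1 ran from 0.244 to 0.371, so its size depends on the length used. OAZ1 exceeded OAZ2 22.6-fold to 29.6-fold, or 29.9-fold to 39.2-fold over the exons of all transcripts.

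**Figure D4:**
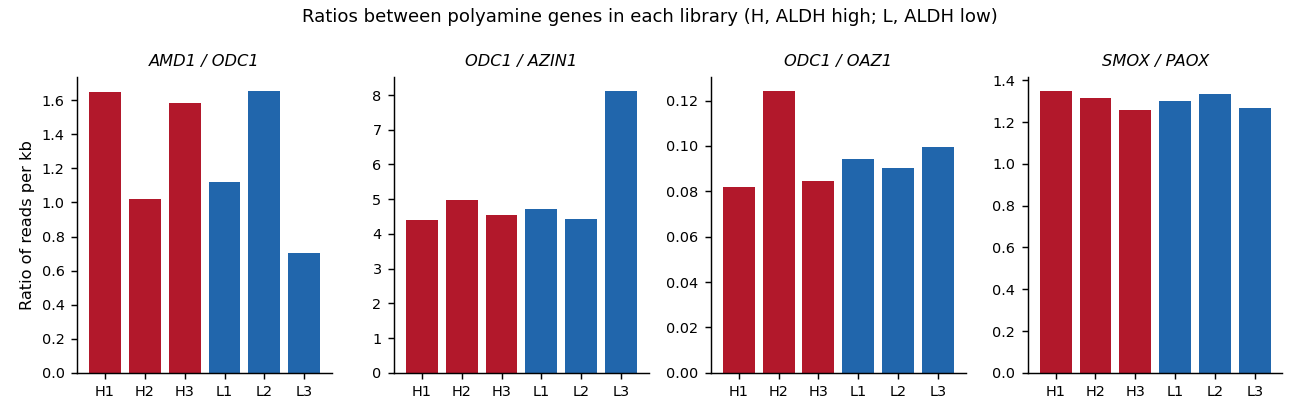
Ratios of reads per kilobase between pairs of polyamine genes in each library (bars from 0, red for ALDH high and blue for ALDH low). ALDH low 3 stands out in AMD1 over ODC1 and in ODC1 over AZIN1, and SMOX over PAOX is nearly level at 1.26 to 1.35.

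The rest of the pathway was read from lists of 54 further genes, of which 40 were in the table. None passed limma's threshold in either direction, 19 had differences above 0 and 21 below, and the median was −0.01, against 0.02 over all genes. Among 7 of 10 genes of arginine and ornithine supply in the table, ARG2, the mitochondrial arginase that releases the ornithine used by ODC1, had the largest difference of those averaging 100 or more. It gave 700, 1977 and 806 normalized reads in the ALDH high libraries and 2033, 863 and 2043 in the ALDH low ones. ALDH high 1, ALDH high 3 and ALDH low 2 were low, with no library between 863 and 1977, and the log2 difference between gates was −0.56 (−1.47 to 0.35). AMD1 divided the same libraries in the opposite direction, and the mitochondrial share of reads divided them too. The share of all genes with this division was not counted, so no link between ARG2 and AMD1 can be read from it. ASS1, which makes argininosuccinate, and SLC7A1, an arginine transporter, were the most abundant of this list per length, and their differences were −0.01 (−0.36 to 0.34) and 0.17 (−0.25 to 0.60).

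Of 7 other polyamine enzymes and regulators, 5 were in the table. SAT2, a relative of SAT1, had a difference of −0.18 (−0.64 to 0.28) and was highest in ALDH low 3 at 2113 normalized reads, against 1242 to 1557 elsewhere. ALDH9A1, which oxidises the aldehyde formed from putrescine, differed by −0.07 (−0.43 to 0.29). HDAC10, a deacetylase of acetylated spermidine, had the largest difference, 0.31 (−0.40 to 1.02), giving 672, 355 and 684 in the ALDH high libraries and 280, 518 and 593 in the ALDH low ones. AZIN2, a second antizyme inhibitor named here after its values were seen, gave 207, 73.0 and 234 in the ALDH high libraries and 92.7, 203 and 123 in the ALDH low ones. Its high libraries were those of AMD1, and its log2 difference was 0.20 (−0.76 to 1.17).

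Polyamine transport was represented by 6 of 13 genes. SLC3A2, a transporter subunit linked to polyamine exchange, differed by −0.07 (−0.47 to 0.34), and ATP13A2, a lysosomal polyamine pump, by 0.20 (−0.13 to 0.52). Spermidine is also the source of hypusine, a modified residue of the translation factor eIF5A, and 3 of 4 genes of that step were in the table. EIF5A had group means ± SD (n = 3 each) of 26007 ± 822 and 28535 ± 7094 and was highest in ALDH low 3 at 36515. The hypusine enzymes DHPS and DOHH differed by 0.03 (−0.39 to 0.46) and −0.19 (−0.67 to 0.28).

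All 10 genes of S-adenosylmethionine supply and methylthioadenosine salvage were in the table, with a median difference of −0.05. AHCY, which clears S-adenosylhomocysteine, and MAT2A, which makes S-adenosylmethionine, were the most abundant per kilobase of the basic set and differed by −0.12 (−0.47 to 0.23) and 0.02 (−0.31 to 0.35). MTR, methionine synthase, had the largest difference among those averaging 100 or more, 0.41 (−0.13 to 0.95), and its lowest library was ALDH low 3 at 633 against 1135 to 1508 elsewhere. Of 10 genes of the MYC and MAX network, 9 were in the table, with a median of 0.07. MNT, a repressor that competes with MYC for MAX, had the largest difference, 0.32 (−0.05 to 0.70), and MXD4, another MAX partner, differed by −0.21 (−0.60 to 0.18).

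**Figure D5:**
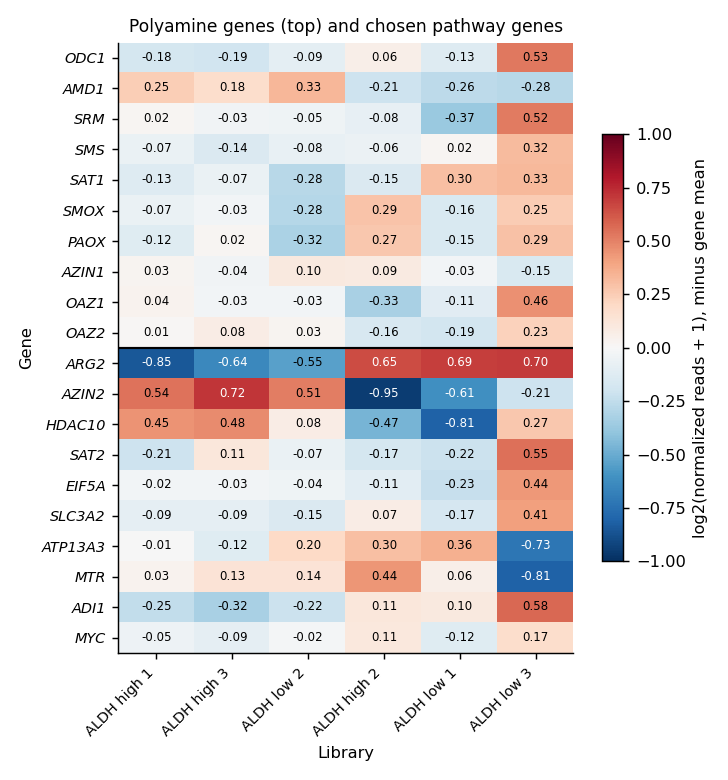
Centred log2 levels (value minus the gene's mean over 6 libraries, printed in each cell) of the 10 polyamine genes (above the line) and 10 other pathway genes chosen after their values were seen. The columns place the similar libraries ALDH high 1, ALDH high 3 and ALDH low 2 first; AMD1 and AZIN2 are above 0 in those and below 0 in the other 3, ARG2 the reverse, and ODC1, SRM and OAZ1 are highest in ALDH low 3.

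The genes whose pattern was most like the most variable members were sought among 11497 named genes averaging 100 or more, by the root mean square distance between centred log2 values over the 6 libraries. For SRM these were PFN1 (0.04), MAP2K2 (0.05) and GMPPA (0.05), for AMD1 they were RIMS4 (0.03), EME1 (0.04) and NUFIP1 (0.04), and for ODC1 they were TOR2A, NAGLU and CCDC94 (0.05 each). EME1, an endonuclease subunit, showed the division of AMD1, giving 1027, 726 and 1001 normalized reads in the ALDH high libraries and 733, 1043 and 723 in the ALDH low ones. PFN1, the actin-binding protein profilin, had 51372 in ALDH low 3 and 27280 in ALDH low 1, the highest and lowest libraries of SRM as well. Between members the nearest pair was SMOX and PAOX (0.04), followed by ODC1 and SMS (0.13) and by OAZ1 and OAZ2 (0.13). These distances rest on 6 libraries, that of SMOX and PAOX also on few reads, and are given as a description.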

How the data were processed

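Trimmomatic 0.36, STAR 2.5.2b, Subread 1.5.2 with featureCounts, DESeq2 and the build GRCh38 are named per the submitters' processing notes. Per the labels' protocols, unique reads in exons were counted per gene. The annotation release and the strand setting are not given in the sources used here. Normalized read counts (the signal of a gene in a sample, that is its reads over the sample's size factor) were deposited by the authors in 1 table. It also holds the authors' deposited log2 fold change, positive where ALDH low is higher, with p-values and adjusted p-values. Of 16046 rows, 46 were ERCC spike-in sequences, and the lowest row mean was 9.65. Names turned into dates or left blank (66) were restored from GENCODE release 29 where it holds the identifier. That release matched 15939 of the 16000 gene identifiers. It also gave coordinates and exon lengths, the latter as the union of exons in its basic transcript set.

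Whole reads were recovered from the step of each library: at least 99.99% of values were whole to within 0.02 read. Group differences were tested by limma 3.58.1 (R 4.3.3), with a trended variance, on log2(normalized count + 1), over all 16000 genes, two-sided, with Benjamini-Hochberg adjustment and a threshold of 0.05. This scale understates changes of low genes. edgeR 4.0.16, DESeq2 1.42.0 and limma-voom on these reads, which called 0 genes each, were alternatives, with other pseudocounts, filters and scalings and libraries left out. The procedure was tested on simulated data. The polyamine genes, the pathway lists, the tests and the alternatives were chosen with earlier results of these data known. By rule, the text names all 10 members and, per pathway list, the 2 genes highest per length and the gene with the largest difference among those averaging 100 or more. It also names the 3 genes nearest in pattern to each of the 3 most variable members. The labels do not say that sample numbers pair the libraries. Deviations from the group means correlated at −0.46, −0.434 and 0.136 for numbers 1, 2 and 3, and at −0.515 to 0.559 for unlike numbers. The division of the libraries across the gates enters these values, so they cannot settle whether the numbers pair.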

Additional observations from a re-analysis of the deposited data

Results flagged for a closer look

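Some rows of the table are ERCC spike-ins, synthetic RNAs added as controls, and they enter none of the comparisons. They took 0.487% of all recovered reads (0.399% to 0.630% of single libraries), where 0 reads would allow a share of up to 1.83e-06%. Groups of 3 libraries were too small to look for outlying values.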

How the results depend on the processing

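The number of genes past limma's threshold was 0 in 15 of 16 alternatives, and 107 without both samples numbered 2, which these same data had singled out. The number of polyamine genes past it was 0 in all 16, by limma and by each count test, and the smallest adjusted p of any of them in any alternative was 0.249. With a replicate block on the sample numbers, which are not said to pair the libraries, the count was 0 and the median over the polyamine genes stayed at −0.06. That median ran from −0.15 to 0.02 when each library was left out in turn, the highest value being that without ALDH low 3, and was −0.11 without both samples numbered 2 and −0.01 with total-count scaling. Signs held under all alternatives in AMD1, SMS, SAT1 and OAZ1. They turned in the other 6, none of which was called. Leaving out 1 library at a time gave 0.037 to 0.34 in AMD1, −0.26 to −0.061 in SMS, −0.43 to −0.12 in SAT1, −0.32 to −0.036 in OAZ1, 0.012 to 0.28 in SMOX, −0.32 to 0.0079 in ODC1, −0.27 to 0.18 in SRM, −0.013 to 0.29 in PAOX, −0.010 to 0.12 in AZIN1 and −0.16 to 0.053 in OAZ2. Without both samples numbered 2 the values were −0.10 in SMOX, −0.12 in PAOX and 0.019 in OAZ2. The cause was not tested. PAOX and SMOX have the fewest reads of the polyamine genes, and the part of counting error was not tested.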
